A study of Homo sapiens with 2 samples.

Results

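TGF-beta and BMP signalling was represented here by 43 genes, out of 20046 protein-coding genes in GENCODE release 44, that encode the ligands, receptors, SMAD proteins, antagonists and immediate ID targets of the pathway. The genes were listed by their place in the pathway, with earlier results of these data known, and no binding value enters the rule that lists them. For each gene, every binding summit was listed that lay inside the gene or within 100 kb of an annotated transcription start site (TSS), and a summit within 2.5 kb of a TSS was called a promoter summit. The data were anti-FLAG ChIP-seq of HCT116, a human colorectal carcinoma line, with 1 sample of each of 2 groups. Both groups carried the shRNA shTCF7L1-2 against endogenous TCF7L1, and both received 1 µg/ml doxycycline to switch on a pCW57.1 construct. In the TCF7L1 group the construct encoded FLAG-tagged, shRNA-resistant TCF7L1, a DNA-binding repressor of the TCF/LEF family. In the TCF7L1-MUT group it encoded the same protein with a mutated HMG box, the domain that contacts DNA. The factor was therefore an induced, tagged transgene on a knock-down background, in stable lines. With 1 sample per group, every difference given below describes these samples and carries no test across replicates.

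TGF-beta family ligands bring together type I and type II receptor kinases, which phosphorylate receptor-regulated SMADs. These join SMAD4, enter the nucleus and act on target genes, among which the ID genes and the inhibitory SMADs are classical BMP targets. Secreted antagonists, the pseudoreceptor BAMBI, inhibitory SMADs, SKI-family corepressors and SMURF ubiquitin ligases each dampen the signal. In the colon, BMP activity is high in differentiated epithelium and low in the crypt base, where Wnt signalling through TCF proteins is strong. HCT116 itself carries inactivating TGFBR2 mutations, so its canonical TGF-beta receptor response is impaired.

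The TCF7L1 list held 3762 summits in 3663 regions and the TCF7L1-MUT list held 224 summits in 204 regions. Each summit had a fold enrichment over the local background and a q-value as −log10, both from the authors' MACS2 run. No member had a TCF7L1-MUT summit, by either distance rule. The nearest TCF7L1-MUT summit to any member lay 537 kb from a TSS of ID1. A count of 0 of 43 allows a share of up to 6.98% (3 counts of 43). Over all protein-coding genes the TCF7L1-MUT list reached 0.0948% at promoters and 0.803% inside or within 100 kb, so the 0 among 43 members did not set them apart from other genes. All results that follow are from the TCF7L1 sample. The lists hold no expression values, so neither the knock-down nor the cell identity could be checked from them.

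The DNA under the summits that the results turn on is given first, read from GRCh38 (hg38) 5′ to 3′ on the strand of the member gene. Each line covers the window of 100 bp to either side of a summit, less any base annotated as UTR, so that windows lying over a first exon are shown in part. The first 10 lines are the promoter summits, and the last 2 are the summits with the highest fold enrichment among those farther away, in single-copy sequence, whose nearest protein-coding TSS was a member's. Capitals mark the TCF core (CTTTG followed by A or T at each of the next 2 positions, in either orientation) and, in SMAD6, the palindrome GTCTAGAC. That palindrome is a SMAD-binding sequence.
TGFBR3, 2191 bp upstream of an internal start, chr1:91864137-91864337, minus strand: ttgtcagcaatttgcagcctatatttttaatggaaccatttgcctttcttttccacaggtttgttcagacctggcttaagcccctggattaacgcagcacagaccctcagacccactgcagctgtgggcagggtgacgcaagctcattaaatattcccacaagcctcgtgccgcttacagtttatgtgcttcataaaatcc
BAMBI, intron 1, chr10:28679062-28679262, plus strand: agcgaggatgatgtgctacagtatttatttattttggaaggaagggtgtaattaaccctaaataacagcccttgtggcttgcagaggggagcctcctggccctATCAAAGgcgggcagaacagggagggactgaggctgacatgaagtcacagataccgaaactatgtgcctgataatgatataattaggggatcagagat
SMAD6, upstream edge of the window, chr15:66702160-66702235, plus strand: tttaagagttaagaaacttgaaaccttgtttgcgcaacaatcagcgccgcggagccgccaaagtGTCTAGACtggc
SMAD3, 523 bp downstream of its 5′ end, chr15:67064186-67064386, plus strand: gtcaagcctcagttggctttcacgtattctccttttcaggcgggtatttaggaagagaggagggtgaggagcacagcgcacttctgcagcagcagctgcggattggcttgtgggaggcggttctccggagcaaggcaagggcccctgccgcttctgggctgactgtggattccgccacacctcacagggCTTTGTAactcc
SMAD2, 1421 bp downstream of an internal start, chr18:47894204-47894404, minus strand: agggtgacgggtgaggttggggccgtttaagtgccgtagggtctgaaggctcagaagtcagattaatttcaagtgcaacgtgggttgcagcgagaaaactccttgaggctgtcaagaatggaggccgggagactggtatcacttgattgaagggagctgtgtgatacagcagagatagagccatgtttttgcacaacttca
SMAD2, 5′ end, part of the window, chr18:47930191-47930251, minus strand: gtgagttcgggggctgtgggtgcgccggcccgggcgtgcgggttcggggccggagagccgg
ID2, 863 bp upstream, chr2:8677882-8678082, plus strand: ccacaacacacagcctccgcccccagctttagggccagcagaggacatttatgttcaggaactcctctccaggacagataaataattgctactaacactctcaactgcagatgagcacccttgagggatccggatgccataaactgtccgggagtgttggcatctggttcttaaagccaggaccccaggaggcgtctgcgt
ID2, 250 bp upstream, chr2:8678495-8678695, plus strand: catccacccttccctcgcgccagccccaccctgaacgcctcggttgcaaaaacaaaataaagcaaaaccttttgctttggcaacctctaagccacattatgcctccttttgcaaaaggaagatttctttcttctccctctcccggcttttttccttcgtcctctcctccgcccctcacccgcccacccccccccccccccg
SMAD1, part of the window, chr4:145482708-145482791, plus strand: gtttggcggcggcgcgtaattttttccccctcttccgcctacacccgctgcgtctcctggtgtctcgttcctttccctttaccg
ID4, 1786 bp downstream, part of the window, chr6:19839056-19839209, plus strand: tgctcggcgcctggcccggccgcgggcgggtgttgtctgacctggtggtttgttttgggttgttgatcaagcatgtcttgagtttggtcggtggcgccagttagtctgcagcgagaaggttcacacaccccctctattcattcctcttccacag
TGFBR3, intron 2, chr1:91819556-91819756, minus strand: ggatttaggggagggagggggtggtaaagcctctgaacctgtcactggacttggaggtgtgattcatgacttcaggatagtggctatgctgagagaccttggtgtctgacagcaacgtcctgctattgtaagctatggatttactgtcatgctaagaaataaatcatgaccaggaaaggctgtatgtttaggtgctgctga
NOG, 15.8 kb upstream, chr17:56577830-56578030, plus strand: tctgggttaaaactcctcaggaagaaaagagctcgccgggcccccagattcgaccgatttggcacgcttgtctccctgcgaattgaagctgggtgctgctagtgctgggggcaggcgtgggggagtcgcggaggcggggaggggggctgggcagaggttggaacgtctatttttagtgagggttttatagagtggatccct
Only BAMBI and SMAD3 show a TCF core in these lines. The core in SMAD1 lies in the part of its window that is annotated as UTR.

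TCF7L1 summits were found at the promoters of 8 of 43 members, at TGFBR3, SMAD1, SMAD2, SMAD3, SMAD6, BAMBI, ID2 and ID4. This was 18.6% (95% Wilson interval 9.74% to 32.6%), against 4.86% of all protein-coding genes (975 genes). The ratio of the shares was 3.83 (2 to 6.71, the members' interval divided by the background share). Inside the gene or within 100 kb, 16 of 43 members had a summit, which was 37.2% (24.4% to 52.1%) against 23.1% of all protein-coding genes. The additional genes were TGFBR1, BMPR1A, BMPR1B, SMAD7, NOG, FST, SMURF2 and ID1, and the ratio was 1.61 (1.05 to 2.26).

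Long genes and genes with many start sites present more sequence to such a search. The median length searched was 224 kb for members and 211 kb for all genes under the wider rule, and both groups had a median of 5 TSSs. The 8 members with a promoter summit had a median of 7.5 TSSs. When the background was averaged over deciles of searched length to match the members, it was 5.27% at promoters and 24.8% under the wider rule. The ratios against it were 3.53 (1.85 to 6.19) and 1.5 (0.984 to 2.11), so that the interval of the wider share then reached the background.

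The promoter result depended on which summits were kept. With summits of at least 5-fold enrichment alone, the list fell from 3762 to 1861 summits and 1 of 43 members kept a promoter summit (SMAD2, 2.33% against 1.92% of all genes). Under the wider rule 3 members remained (BMPR1B, TGFBR3 and SMAD2), which was 6.98% against 11.6% of all genes, and the ratio turned to 0.599. Keeping instead the 1881 summits with the smallest q-values, a selection added after the data were seen, gave other values. Promoter summits then stood at 5 of 43 members (SMAD1, SMAD3, SMAD6, BAMBI and ID2), or 11.6% against 2.29% of all genes, a ratio of 5.07. The wider rule gave 9 members, or 20.9% against 13%, a ratio of 1.61.

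**Figure D1:**
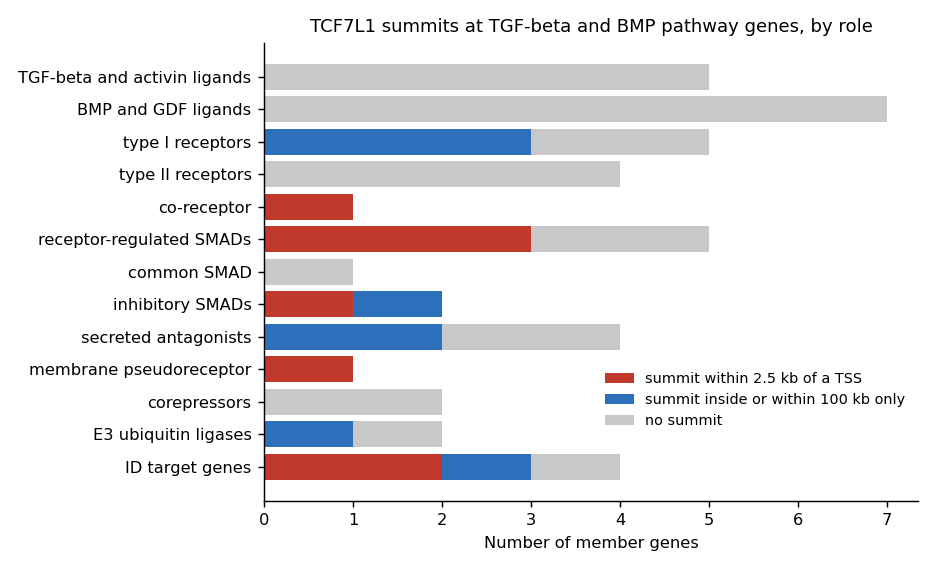
Number of pathway genes (horizontal axis) in each role (vertical axis), split into those with a TCF7L1 summit within 2.5 kb of a TSS (red), those with a summit only inside the gene or within 100 kb (blue) and those with none (grey). All 12 ligands and all 4 type II receptors are grey, while SMAD and ID genes hold 6 of the 8 red genes.

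The ratio of members to all genes was larger at short than at long distances from a TSS. Counting distance from a TSS alone, without the gene body, 11.6% of members and 3.87% of all genes had a summit within 1 kb, a ratio of 3. The share of members stayed at 18.6% from 2.5 to 5 kb and was 20.9% at 10 kb, where the ratio was again 3 (1.64 to 5.05). At 50 kb the shares were 27.9% and 14.9%, a ratio of 1.87. At 100 kb they were 34.9% and 22.9%, with a ratio of 1.53 (0.981 to 2.18).

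**Figure D2:**
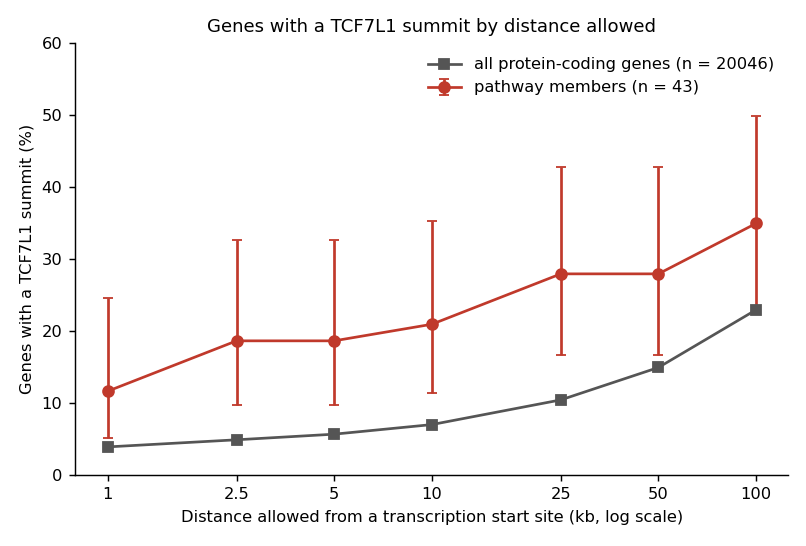
Share of genes with a TCF7L1 summit (vertical axis, percent) by the distance allowed from any TSS (horizontal axis, kb, log scale), for the 43 members with 95% Wilson intervals (red circles) and for all 20046 protein-coding genes (grey squares). The members lie above the background at every distance, and at 100 kb the lower bound of 22.4% falls below the background of 22.9%.

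None of the 12 ligand genes had a summit under either rule. These were TGFB1, TGFB2, TGFB3, INHBA and INHBB, listed as TGF-beta and activin ligands. The others were BMP2, BMP3, BMP4, BMP5, BMP6, BMP7 and GDF15, listed by family name as BMP and GDF ligands. A count of 0 of 12 allows a share of up to 25% (3 counts of 12), and its Wilson interval reached 24.2%. Both are approximate bounds that lie only slightly above the 23.1% of all genes. INHBB, which encodes an activin subunit, came closest with a summit 100440 bp from its TSS, just outside the limit. BMP2 was the farthest of all members, with its nearest summit 1833 kb away.

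Among the 10 receptor genes, the co-receptor gene TGFBR3 had a promoter summit, and the type I receptor genes TGFBR1, BMPR1A and BMPR1B had more distant ones. The receptor share was 40% (16.8% to 68.7%), an interval that includes the 23.1% of all genes. TGFBR3 encodes betaglycan, which presents TGF-beta to the signalling receptors. It held 3 summits, all in introns of its reference transcript, at fold enrichments of 3.86, 4.33 and 5.23. The summit of 3.86-fold also lay in an exon of another annotated transcript. The first lay in intron 1 at chr1:91864082-91864500, 2191 bp upstream of an internal TSS and 42.1 kb from the 5′ end of the gene, so that it counted as a promoter summit for a shorter transcript only. It was also the promoter summit nearest to the 2.5 kb limit, and the nearest one outside was that of ID1 at 9369 bp. The strongest was in intron 2 at chr1:91819478-91819809, with a −log10 q of 7.66 and 25 reads.

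The type I receptor summits all lay far from a start site. In BMPR1B, a BMP type I receptor gene, the summit fell in intron 1 at 83.4 kb from the 5′ end with 5.2-fold enrichment (−log10 q 4.45). This was the single member summit in repeated sequence: every 31-base word of its window occurred elsewhere in the genome, at a median of 899 copies. Over all TCF7L1 summits, 21.8% lay in windows where at least 50% of words were repeated. The BMPR1A summit, at another BMP type I receptor gene, lay in intron 2 at 112 kb from the 5′ end, with 3.89-fold enrichment. Its nearest protein-coding TSS was that of MMRN2, 75947 bp away. In TGFBR1, the TGF-beta type I receptor gene, the summit lay beyond the 3′ end of the gene, 23.3 kb from an internal TSS, with 3.99-fold enrichment. ACVR1, ACVR1B, and the type II receptor genes TGFBR2, ACVR2A, ACVR2B and BMPR2 had none.

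The SMAD genes, which encode the signal transducers, had summits at 5 of 8 members (62.5%, 30.6% to 86.3%, against 23.1% of all genes) and promoter summits at 4, where 4.86% of all genes had one. In SMAD1, a receptor-regulated SMAD of the BMP branch, the summit at chr4:145482360-145482992 lay 5 bp upstream of 1 of its 16 annotated TSSs. It was 1.61 kb downstream of the 5′ end of the gene, with 4.60-fold enrichment, a −log10 q of 5.73 and 23 reads. SMAD2 and SMAD3 transduce TGF-beta and activin signals. SMAD2 had a summit 71 bp downstream of a TSS near its 5′ end (chr18:47930191-47930794, 4.56-fold, −log10 q 3.47, 15 reads). A further one lay 1421 bp downstream of an internal TSS and 36.8 kb from the 5′ end (chr18:47894130-47894469, 5.42-fold, −log10 q 5.08). This was the highest fold enrichment of all member summits, at rank 1383 of 3762. SMAD3 had a promoter summit 523 bp downstream of its 5′ end (chr15:67064057-67064488, 3.57-fold, −log10 q 6.04, 35 reads). This summit lay outside the reference transcript of SMAD3, and the next annotated TSS was 1.839 kb from the 5′ end. Another SMAD3 summit lay inside the gene, 86.7 kb from the 5′ end, at 3.61-fold and a −log10 q of 4.43, with 27 reads.

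Both inhibitory SMAD genes had summits, SMAD6 at its promoter and SMAD7 upstream. SMAD6 encodes an inhibitor that acts mainly on BMP signalling, and SMAD7 encodes one that acts on both branches. At SMAD6 the promoter summit lay 24 bp downstream of the TSS in the 5′ UTR of exon 1 (chr15:66702070-66702441, 3.37-fold, −log10 q 6.17, 39 reads). The SMAD palindrome shown above lay from 12 to 5 bp upstream of that TSS. SMAD6 also had a summit 22.5 kb upstream, with 4.19-fold enrichment and a −log10 q of 6.95. Its last summit stood 91.6 kb from a TSS, beyond the end of the gene, with 3.36-fold enrichment, and was the farthest one inside the 100 kb limit among genes reached by TSS distance. The SMAD7 summit lay 23.5 kb upstream of the gene, with 3.62-fold enrichment and a −log10 q of 3.19. SMAD4, the shared partner, and the BMP-branch genes SMAD5 and SMAD9 had no summit.

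Of the 9 genes for antagonists and other dampeners, 4 had a summit (44.4%, 18.9% to 73.3%, an interval that includes the 23.1% of all genes) and BAMBI alone had one at its promoter. BAMBI encodes a receptor-like membrane protein without a kinase domain, and is itself a target of Wnt and BMP signals. Its summit lay in intron 1, 1641 bp downstream of a TSS (chr10:28678962-28679347), with 4.31-fold enrichment, a −log10 q of 12.3 and 49 reads. By q-value it ranked 457 of 3762, and its TCF core was centred 6 bp from the summit base. NOG encodes noggin, which binds BMPs, and had a summit 15.8 kb upstream with 4.80-fold enrichment and a −log10 q of 7.34. FST encodes follistatin, which binds activins, and had one 53.9 kb upstream with 4.69-fold enrichment and a −log10 q of 3.40. SMURF2, a ubiquitin ligase gene, was reached only through an internal TSS. Its summits shared a single region that covered the start of CEP95, at 35 bp upstream and 198 bp downstream of the CEP95 TSS, and lay 155 kb from the 5′ end of SMURF2. GREM1, CHRD, SKI, SKIL and SMURF1 had none.

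The ID genes encode helix-loop-helix inhibitors of bHLH factors, and 3 of the 4 had a summit (75%, 30.1% to 95.4%, against 23.1% of all genes). ID2 had a region of 1041 bp over its upstream flank (chr2:8677752-8678792), the widest at any member. Its summit at 863 bp upstream of the TSS had 3.86-fold enrichment, the highest −log10 q of any member (13.3) and 61 reads, and ranked 367 of 3762 by q-value but 3221 by fold enrichment. The other ID2 summit, at 250 bp upstream, had 2.44-fold enrichment, a −log10 q of 2.84 and 41 reads. They lay 352 bp and 49 bp from a TSS of ID2-AS1, a long non-coding RNA gene next to ID2, and the assay cannot assign them to either gene.

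ID4 had a summit 1786 bp downstream of its TSS (chr6:19839004-19839396) with 3.65-fold enrichment and a −log10 q of 2.25, the least of all member summits. Another lay 32.5 kb upstream, with 4.67-fold enrichment and a −log10 q of 4.72. Both were at annotated starts of the long non-coding RNA gene LNC-LBCS, at 76 bp and 27 bp. The ID1 summit lay 9369 bp upstream of the TSS, with 4.55-fold enrichment and a −log10 q of 5.90. ID3 had none, and its nearest summit was 484 kb away. Over the 27 members without a summit the median distance to the nearest one was 487 kb.

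**Figure D3:**
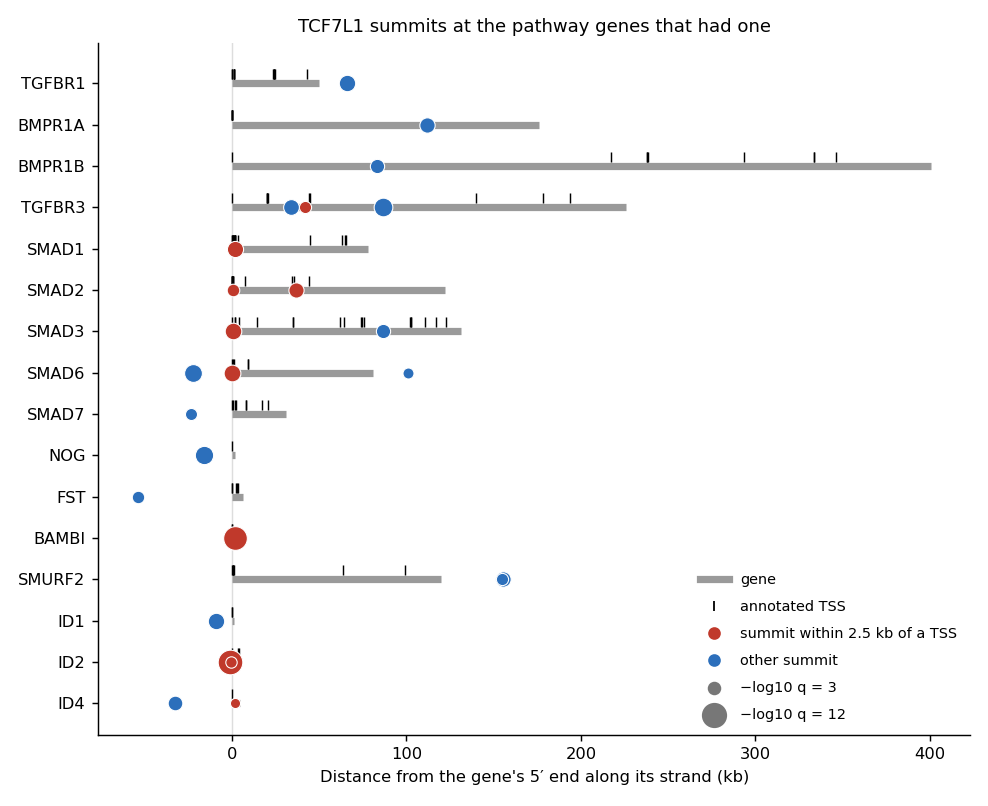
The 25 TCF7L1 summits of the 16 members that had one, by distance from the gene's 5′ end along its strand (horizontal axis, kb), with each gene as a grey bar, annotated TSSs as ticks and circle area proportional to −log10 q. Promoter summits (red) gather near 0 at the SMAD and ID genes and BAMBI, apart from those near internal starts of SMAD2 and TGFBR3, at 36.8 and 42.1 kb. SMURF2 and BMPR1A summits lie at 155 and 112 kb.

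The 16 members held 25 distinct summits, of which 22 (88%, 70% to 95.8%) had the member itself as the nearest protein-coding gene by TSS. Over all protein-coding genes, 2923 of 6809 pairs of a gene and a summit under the same rule met this condition (42.9%). Within 100 kb of its own start sites a member had a median of 2 other protein-coding neighbours, against 3 for all genes. Of the 43 members, 14 (32.6%, 20.5% to 47.5%) had at least 1 summit nearest to their own TSS, against 10.5% of all protein-coding genes. At least 2 summits were found at 7 members, or 16.3%, against 6.26% of all genes. These were TGFBR3, SMAD2, SMAD3, SMAD6, SMURF2, ID2 and ID4.

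None of the 25 lay in a region that overlapped a TCF7L1-MUT region, against 3.8% of all TCF7L1 summits that did. In strength the member summits were modest by fold enrichment and ordinary by q-value. Their fold enrichment ran from 2.44 to 5.42 with a median of 4.19 (95% interval of the median 3.86 to 4.55), against a median of 4.98 over all 3762 summits and 4.57 over the 969 summits within 2.5 kb of any protein-coding TSS. None was among the 940 summits with the highest fold enrichment, and 3 of 25 (12%) reached 5-fold against 49.5% of all summits. By −log10 q their median was 5.14, against 5.44 over all summits and 4.99 over all promoter summits.

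**Figure D4:**
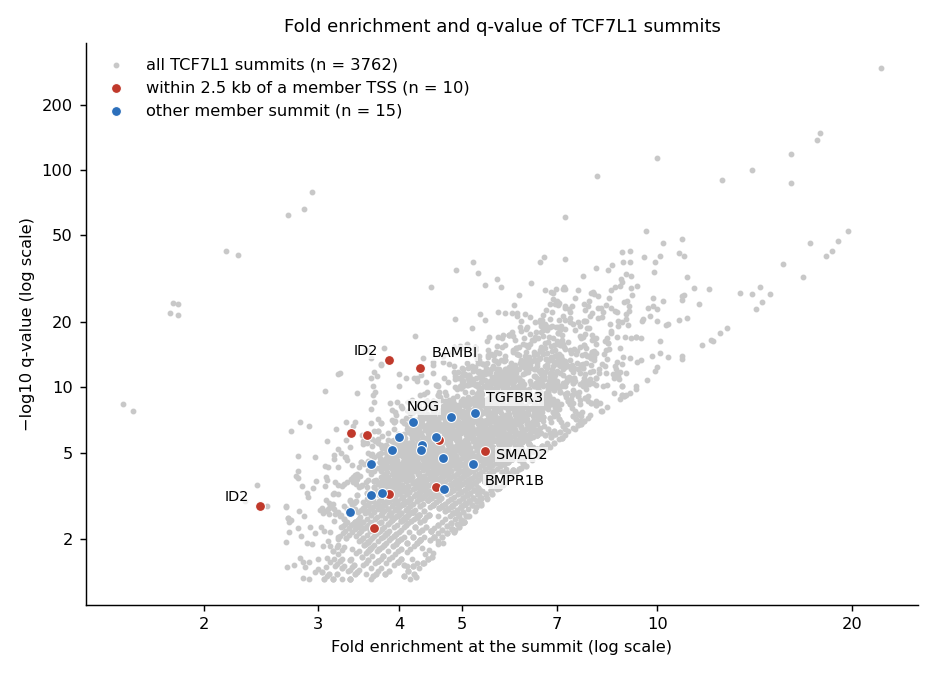
Fold enrichment (horizontal axis, log scale) against −log10 q-value (vertical axis, log scale) for all 3762 TCF7L1 summits (grey), the 10 member promoter summits (red) and the 15 other member summits (blue). ID2 at 3.86-fold and BAMBI at 4.31-fold have −log10 q of 13.3 and 12.3, on the upper left side of the cloud.

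Fold enrichment divides the reads at a summit by a local background, and both quantities were solved from the fold enrichment and p-value of each summit under the Poisson model of MACS2. The member summits had a median of 24 reads (21 to 27), against 20 over all summits. Their local background had a median of 4.77 reads (4.22 to 6.2), against 3.29 over all summits and 3.69 over promoter summits. ID2 had the highest local background, 15.1 and 16.2 reads at its summits, and SMAD6 and BAMBI followed with 10.9 and 10.6 reads. The lowest were 2.08 reads at BMPR1B and 2.14 at the SMAD2 summit near an internal start, which were also among the 3 summits past 5-fold. The part of the local background in the lower fold enrichment of these summits was not tested.

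**Figure D5:**
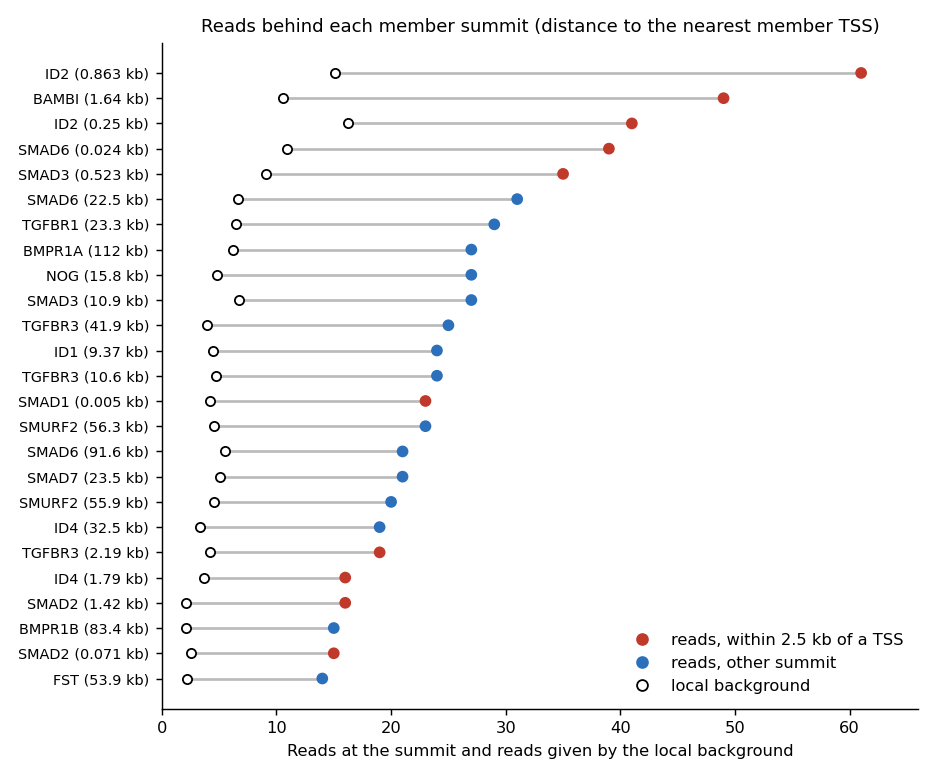
Reads at each of the 25 member summits (filled circles, red within 2.5 kb of a TSS, blue elsewhere) and the reads given by the local background (open circles), solved from fold enrichment and p-value, with the distance to the nearest member TSS beside each gene. Reads ran from 14 at FST to 61 at ID2, and the 5 summits with most reads were promoter summits at ID2, BAMBI, SMAD6 and SMAD3.

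The TCF core was present within 100 bp of 5 of 25 member summits (20%, 8.86% to 39.1%), against 26.7% of the 3677 TCF7L1 summit windows read from the chromosomes. Among windows of single-copy sequence the share over all summits was 21%, and among promoter summit windows of any protein-coding gene it was 23.7%. Of the 10 member promoter summits, 3 had a core (30%, 10.8% to 60.3%). The windows with a core were those of BAMBI, SMAD1, SMAD3, BMPR1B and the TGFBR3 summit 10.6 kb upstream of an internal TSS. SMAD1 held CTTTGAA and CTTTGTT, with the nearer one centred 68 bp from the summit, and SMAD3 held CTTTGTA at 92 bp. The TGFBR3 window held CTTTGAA and CTTTGAT, the nearer one at 78 bp. Neither ID2 window held a core, which says only that these letters were not there.

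Median GC content was 56.2% in the member windows, 51.7% over all summits and 54.2% over promoter summits. Its part in the shares that follow was not tested. A looser TCF/LEF sequence (TTTGA or TTTTA with A or T after it), which overlaps some cores, occurred in 9 of 25 member windows (36%, 20.2% to 55.5%). It was in 53.4% of all windows and 47.9% of promoter summit windows. A forkhead sequence, TATTTAC or TGTTTAC, occurred in 1 of 25 (4%, 0.71% to 19.5%), in BMPR1B, against 12.5% of all windows, 7.44% of single-copy ones and 6.71% of promoter summit windows. GATA with A or T before it and A or G after it occurred in 5 of 25 (20%, 8.86% to 39.1%). It was in 31.8% of all windows and 22.2% of promoter summit windows. SMAD-binding sequences were looked for in the same windows and on both strands. GTCTAGAC occurred in 1 of 25 member windows, that of SMAD6, and in 0.326% of all TCF7L1 windows. The BMP-type SMAD element GGCGCC occurred in 5 of 25 (20%, 8.86% to 39.1%), at BMPR1A, BMPR1B, the main start of SMAD2 and both ID4 summits. It was in 10.6% of all windows, 6.06% of single-copy ones and 12.2% of promoter summit windows. The BMPR1B window, among these 5, was itself in repeated sequence. The GC-rich sequence GGGCGG, bound by SP and KLF factors, occurred in 7 of 25 (28%, 14.3% to 47.6%) against 14.4%, or 26.8% of promoter summit windows. The AP-1 sequences TGACTCA and TGAGTCA occurred at a single member summit (4%), the SMAD6 summit 91.6 kb from a TSS. Their share was 7.29% over all windows and 4.02% over promoter summit windows. For every sequence searched but GTCTAGAC, the TCF core included, the interval of the members included the share over all windows. The interval for GGCGCC lay above the share of 6.06% in single-copy windows. That comparison is between unlike sets, since the 25 member windows include the repeated one of BMPR1B. Against promoter summit windows the interval for GGCGCC included the share of 12.2%. For GTCTAGAC the single window gave 4% (0.71% to 19.5%).

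RefSeq promoters (250 bases before to 50 after the start, GRCh38) were matched by symbol for 38 of 43 members. The TCF core was in 0 of 8 promoters of members with a promoter summit, and in 5 of 30 others (16.7%), against 11% of the 15843 promoters of protein-coding genes matched. A count of 0 of 8 allows a share of up to 37.5%. These promoters are not the summit windows, and 3 of 10 windows of member promoter summits held a core. Median GC content was 74% in the 8 promoters, 66.3% in the 30 others and 62.7% over all. The part of GC content in these shares was not tested. The forkhead sequence was in 3 of 8 promoters of members with a promoter summit (37.5%, 13.7% to 69.4%), against 4.55% of all. Over all member promoters it was in 6 of 38 (15.8%, 7.44% to 30.4%). It was in 0 of 10 windows of member promoter summits, so these promoter copies lay outside those windows. Over member promoters, the looser TCF/LEF sequence was in 34.2% against 32.3% of all, and the BMP-type SMAD element in 34.2% against 25.2%. The GATA sequence was in 15.8% against 19.7%, AP-1 in 2.63% against 3.66% and the SP and KLF sequence in 68.4% against 58.5%. The Wilson interval of each included the share of all. GTCTAGAC was found in the SMAD6 promoter and in no other member promoter, against 0.221% of all.

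Another 59 genes of the same pathway, listed from general knowledge of the pathway and not among the 43, were examined in the same way. They include further ligands, latent TGF-beta binding proteins, antagonists, co-receptors and target genes. A promoter summit was found at 2 of them, TLL1 and RGMA, or 3.39% (0.935% to 11.5%), against 4.86% of all genes. TLL1 encodes a protease that cleaves chordin, and its summit lay 27 bp upstream of the TSS with 3.93-fold enrichment. RGMA encodes a BMP co-receptor, and its summit lay 1115 bp downstream of a TSS with 4.24-fold enrichment. Inside or within 100 kb, 11 of 59 had a summit (18.6%, 10.7% to 30.4%), against 23.1% of all genes, and none had a TCF7L1-MUT summit. The interval of their promoter share ended at 11.5%, and that of the 43 members began at 9.74%. Such an overlap does not show that the shares are alike, and the difference between the lists was not tested.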

How the data were processed

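Anti-FLAG ChIP libraries of 1 TCF7L1 and 1 TCF7L1-MUT sample were sequenced and processed by a service provider. Per the authors' methods, reads were trimmed with skewer, checked with FastQC, mapped to GRCh38 (hg38) with BWA 0.7.12 and peaks called with MACS2 2.1.0, sample by sample. The deposited lists give fold enrichment (a linear ratio to the local background), −log10 p-value and −log10 q-value per summit. The use of input DNA and of duplicate reads is not given in the sources used here, and read depth was not analysed here.

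Summits were assigned to GENCODE release 44 transcripts in Python 3.11.15 with NumPy 2.4.6, SciPy 1.17.1 and pysam 0.24.0. The gene annotation and genome were of the same build. Sequences are printed for promoter summits and the leading distal ones, and 1 further window, in repeated DNA, is not reported here. Repeated sequence was counted as 31-base words found more than once in the primary assembly. Reads and local background were solved from fold enrichment (pseudocount 1) and p-value. The steps were tested on simulated data. Wilson 95% intervals cover counting error only, over genes or summits that are not replicates. Values are given for every member with a summit, and the others are named. The members and lists were chosen with earlier results of these data known. Alternatives changed the q-value, fold enrichment, distance, start site, repeat, overlap and window settings.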

Additional observations from a re-analysis of the deposited data

How the results depend on the processing

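Of 61 recomputed values, 49 stayed within the interval or the 1.5-fold range of the value reported above, 11 moved and 1 turned direction. Raising fold enrichment to at least 5 gave a promoter share of 2.33% and a ratio of 1.21, a wider share of 6.98% and a ratio of 0.599 (turned), and 3 summits, of which 100% were nearest to a member. Keeping the 1881 summits with the smallest q-values, added after seeing the data, gave a wider share of 20.9% and 10 summits. A reach of 10 kb gave a ratio of 2.75 and 16 summits. These lists are shorter by construction. The share of member summits with the TCF core was 8% with 50 bp and 44% with 250 bp to either side, since longer windows hold more sequence. Leaving out repeated sequence, regions that overlapped TCF7L1-MUT or start sites other than the 5′ end moved no share or ratio beyond its interval.

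No paired analysis was possible because no group held more than 1 sample, which also left no replicate to drop. Shares over the 43 members move in steps of 2.33 percentage points. Those over fewer units, such as the 8 SMAD genes, the 4 ID genes or the 25 summits, move in larger steps. The TCF7L1-MUT list is too short to compare members within it.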
